A study of Rattus norvegicus with 12 samples.

Results

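The genes described here are 9 factors with which a cell senses foreign RNA and answers interferon: the sensors Rigi (also called Ddx58), Ifih1, Dhx58 and Tlr3, the interferon regulatory factors Irf3, Irf7 and Irf1, and the signalling partners Stat2 and Irf9. They were chosen by name, and every probe set whose single gene symbol on the array platform was one of them was taken. Of the 9 genes, 8 were among the 14217 genes measured on the array, by 12 of its 31042 probe sets. Of the 12, 11 carry the member's own symbol. The probe set of Rigi carries the symbol Rig1 and was matched through its Entrez identifier, for which the RefSeq gene table lists Ddx58 as a synonym. Tlr3 has no probe set of its own in the platform annotation, so no level of it is given.

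Cells read viral RNA with a small set of sensors. Rigi (RIG-I) and Ifih1 (MDA5) are helicases of the cytoplasm that bind double-stranded RNA and signal through the adaptor Mavs, Dhx58 (LGP2) is their relative without the signalling domain, and Tlr3 reads double-stranded RNA in endosomes through the adaptor Ticam1. Both routes switch on the kinases Tbk1 and Ikbke, which phosphorylate Irf3 and Irf7, and these induce type I interferon. Interferon bound to Ifnar1 and Ifnar2 then acts through the kinases Jak1 and Tyk2 on Stat2, which joins Irf9 in a complex that binds the interferon-stimulated response element of antiviral genes. Several of the sensors and factors are themselves interferon-induced genes, and fibroblasts are a classical cell in which the whole circuit operates.

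F111 is a normal fibroblast line of the Fischer rat. In the group A16 these cells adhered to plastic for 16 h. In the group Tumor the cells were grown out of subcutaneous tumours that had formed in nude mice, by 3 months after injection, from F111 cells first kept in suspension for 16 h. The explants could hold cells of the mouse host, and the study's methods give more serum for the explants than the labels do, so serum may differ between the groups. Each group had 3 Affymetrix rat arrays, which are named replicate 1, technical replicate 2 and replicate 2 and are listed below in that order. Values are log2 of RMA intensity, and a difference is Tumor minus A16 on that scale with its moderated standard error (SE). Technical replicate 2 was averaged with replicate 1, so n = 2 replicates per group. A probe set was called where limma's adjusted p was below 0.05 and the change was 2-fold or more.

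The median RMA intensity was 98 to 100 on the 6 arrays. Correlations over all tested probe sets were 0.991 to 0.997 within a group and 0.933 to 0.949 between groups. The array's own labelling controls also moved with the groups. The mean log2 value of the 24 poly-A spike probe sets was 7.51 to 7.99 on the A16 arrays and 4.82 to 4.92 on the Tumor arrays. The 18 hybridisation spike probe sets went the other way, from 9.78 to 10.18 in A16 to 10.91 to 11.18 in Tumor. The 3′ minus 5′ difference was 0.64 to 0.71 in A16 and 2.25 to 2.37 in Tumor for beta-actin, and -0.05 to 0.00 and 0.25 to 0.33 for Gapdh. For hexokinase this difference was 0.84 to 1.39 in A16 and 1.83 to 2.30 in Tumor. Labelling, RNA quality and group therefore cannot be told apart. Of 14 fibroblast markers, 5 were called lower in Tumor, among them Col1a1 and Thy1, and 1 was called higher, Col6a1. Over all 14217 genes, 5.44% were called lower and 5.45% higher, by the probe set with the highest mean. The mean log2 value of the fibroblast list was 10.27 to 10.38 on the A16 arrays and 9.75 to 9.79 on the Tumor arrays. Vim, Pdgfra and S100a4 differed by -0.10, -0.06 and 0.24 and were not called.

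The Tumor arrays gave lower RNA levels of all 3 measured sensors and of Irf9 than the A16 arrays. Irf9 was 11.9-fold and 7.71-fold lower by its 2 probe sets and Rigi 8.1-fold lower. Stat2, Irf3 and Irf7 were lower by less than 2-fold, and Irf1 did not differ beyond its error. In all, 7 of the 12 probe sets, of 4 genes, were called lower and 0 were called higher. Over all 31042 tested probe sets, 6.39% were called lower and 5.51% higher. Counted by the adjusted p alone, below 0.05 whatever the fold, 11 of the 12 were lower, against 15.6% of all probe sets. On the same 11, each Tumor array lay below each A16 array, which held for 25.0% of all probe sets. With 1 Tumor replicate left out, the adjusted p of Stat2, Irf3 and Irf7 did not stay below 0.05 in every fit. A legend of the study names a t test. Such a plain test was run here with the spread pooled over both groups but not shared between probe sets. It called 7 of the 12 lower before adjustment (4.81% of all probe sets) and 0 of the 12 after Benjamini-Hochberg adjustment (0.0258%). The median difference was -2.00 over the 12 probe sets and 0.03 over all. In cell cultures like these, fewer cells that carry a transcript and less of it per cell cannot be told apart.

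**Figure D1:**
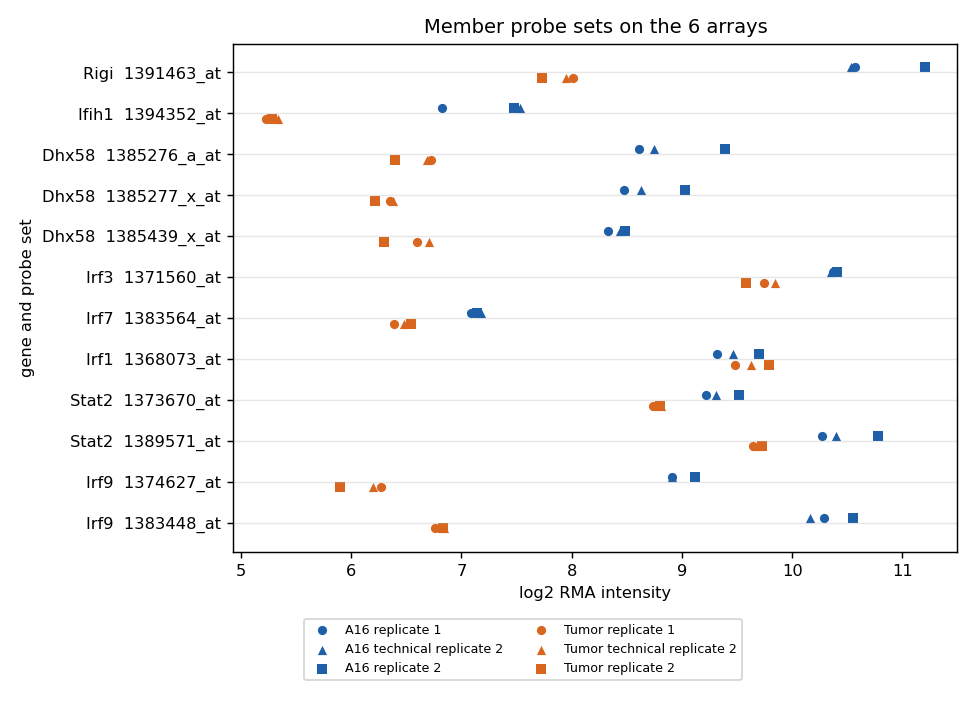
Log2 RMA intensity (x axis) of the 12 member probe sets on the 3 A16 arrays (blue) and the 3 Tumor arrays (orange), with a marker for each array. For Irf1 the groups overlap, and for the other 11 probe sets the A16 and Tumor points are apart, by 3.32 for Irf9 1383448_at and by 0.41 for Stat2 1373670_at.

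Rigi, the sensor of short double-stranded RNA with a triphosphate end, read 10.57, 10.53 and 11.20 on the A16 arrays and 8.01, 7.95 and 7.73 on the Tumor arrays. The groups were 2.52 apart at their nearest arrays, and A16 replicate 2 was the highest of the 6. The difference was -3.02 ± 0.22 (SE, n = 2 per group, adjusted p = 0.00021).

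Ifih1, the sensor of long double-stranded RNA, read 6.82, 7.53 and 7.48 in A16 and 5.23, 5.34 and 5.28 in Tumor. The Tumor arrays lay close together, whereas A16 replicate 1 was 0.71 below technical replicate 2, the widest step between these arrays among the members. The difference was -2.05 ± 0.14 (adjusted p = 0.000144), a 4.14-fold lower level. The Tumor mean of Ifih1 was below the 30th percentile of all probe sets in that group, the only member for which this was so, and a fold near the floor of an array understates a change. The difference was -2.76 by PLIER, another summary of the same scans, and -1.45 when 32 was added to the intensity before log2.

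Dhx58, which modulates the other helicases, has 3 probe sets, and all 3 fell. The probe set 1385276_a_at read 8.61, 8.75 and 9.39 in A16 and 6.72, 6.69 and 6.40 in Tumor, a difference of -2.48 ± 0.24 (adjusted p = 0.000606). The probe set 1385277_x_at read 8.47, 8.63 and 9.03 against 6.35, 6.38 and 6.22, a difference of -2.50 ± 0.18 (adjusted p = 0.000179). On both, A16 replicate 2 stood above the other A16 arrays. The probe set 1385439_x_at read 8.33, 8.44 and 8.48 against 6.60, 6.71 and 6.30, a difference of -1.95 ± 0.15 (adjusted p = 0.000235). The 3 probe sets are not independent measurements of the gene, and the suffix x marks probe sets that may share probes with other transcripts.

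Irf3, the constitutive factor that the sensors activate by phosphorylation, read 10.37, 10.35 and 10.41 in A16 and 9.74, 9.84 and 9.58 in Tumor. The A16 arrays were within 0.06 of each other, and every Tumor array was below them. The difference of -0.70 ± 0.12 (adjusted p = 0.00595) was 1.63-fold, short of the 2-fold minimum.

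Irf7, the inducible factor that amplifies type I interferon, read 7.09, 7.18 and 7.14 in A16 and 6.39, 6.48 and 6.54 in Tumor. Its groups did not overlap either. The difference of -0.65 ± 0.11 (adjusted p = 0.00552) was 1.57-fold and was not called.

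Irf1, which acts mainly downstream of interferon gamma and inflammatory signals, was the exception among the measured members. It read 9.32, 9.46 and 9.70 in A16 and 9.48, 9.63 and 9.79 in Tumor, and the groups overlapped. The difference was 0.13 ± 0.15 (adjusted p = 0.585), with a 95% interval of -0.24 to 0.49, so a change of the size seen for Irf9 lies outside the interval. Without A16 replicate 1 the difference was -0.02.

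Stat2, which brings the activation domain to the complex with Irf9, has 2 probe sets. The probe set 1389571_at read 10.27, 10.40 and 10.78 in A16 and 9.64, 9.69 and 9.73 in Tumor, a difference of -0.86 ± 0.16 (adjusted p = 0.00871). The probe set 1373670_at read 9.22, 9.31 and 9.52 against 8.74, 8.81 and 8.80, a difference of -0.61 ± 0.13 (adjusted p = 0.0131). Both were below 2-fold, at 1.81-fold and 1.52-fold, with no overlap between groups. Without A16 replicate 1 the first of them reached -1.08 and was called, in a fit where the lone A16 sample is assumed to vary like the Tumor samples.

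Irf9, the subunit that recognises DNA in the complex with Stat2, had the widest gap between groups of all members. The probe set 1383448_at read 10.29, 10.16 and 10.55 in A16 and 6.76, 6.84 and 6.83 in Tumor. The difference was -3.57 ± 0.14 (adjusted p = 2.24e-05), and the nearest arrays of the groups were 3.32 apart. The probe set 1374627_at read 8.91, 8.91 and 9.12 against 6.27, 6.20 and 5.90, a difference of -2.95 ± 0.15 (adjusted p = 5.67e-05). Both probe sets of Irf9 thus moved the same way, as did those of Stat2 and of Dhx58.

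Within A16 the replicates also differed in a shared way. On 10 of the 12 probe sets, replicate 2 was above both other A16 arrays, by up to 0.71 over the mean of the other arrays for Dhx58 1385276_a_at and by 0.65 for Rigi. Over all probe sets, A16 replicate 2 was the highest of its group on 31.0%. In Tumor, replicate 2 was below both other arrays on 6 of the 12, against 36.5% of all probe sets. These probe sets share the same arrays, so the counts describe single cultures and no group.

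PLIER gave the same calls on the members. It called 7 of the 12 lower, against 7.74% of all probe sets, with a median of -2.19 over the 12 and 0.06 over all. The PLIER differences were -3.57 ± 0.16 and -2.88 ± 0.17 for the probe sets of Irf9, -2.95 ± 0.19 for Rigi and -0.98 ± 0.14 for Irf3. Irf1 was at 0.27 ± 0.14 (adjusted p = 0.172).

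**Figure D2:**
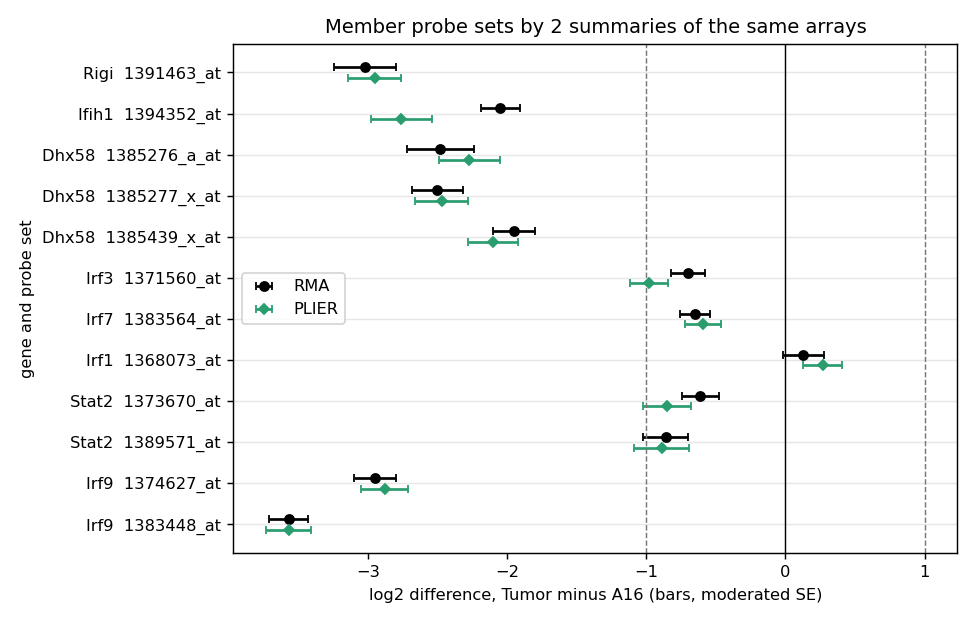
Log2 difference of Tumor minus A16 (x axis) for each member probe set by RMA (black circles) and PLIER (green diamonds), with moderated SE as bars and dashed lines at a 2-fold change. Both summaries place the probe sets of Irf9, Rigi, Dhx58 and Ifih1 beyond the 2-fold line on the lower side, and those of Stat2, Irf3, Irf7 and Irf1 within the lines.

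The promoters of several members were looked at because the complex of Stat2 and Irf9 acts through known DNA letters. RefSeq promoter windows of the GRCr8 assembly, from 250 bases before to 50 after the transcription start, matched 7 of the 9 members (Irf3, Irf7, Irf1, Stat2, Irf9, Ifih1 and Tlr3). The core of the interferon-stimulated response element was searched as GAAA, any 2 bases and again GAAA, on both strands. The gamma-activated site, named for interferon gamma, was searched as TTCNNNGAA, which reads the same on both strands. No match of one overlaps a match of the other in these windows. The first was found in 2 of the 7 windows, Irf7 and Ifih1, and in 3.92% of all 33469 windows. The second was also found in 2 of the 7, Irf9 and Irf1, and in 8.87% of all windows. The 100-base stretches below are shown because they hold these matches, in capitals, and each reads 5′ to 3′ in the direction of its gene. The first is chr1:205800038-205800137 on the minus strand, the second chr3:67683973-67684072 on the minus strand, the third chr15:33065692-33065791 on the plus strand and the fourth chr10:38417748-38417847 on the plus strand.
Irf7: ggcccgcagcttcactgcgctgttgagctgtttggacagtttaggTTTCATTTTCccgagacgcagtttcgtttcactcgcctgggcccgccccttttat
Ifih1: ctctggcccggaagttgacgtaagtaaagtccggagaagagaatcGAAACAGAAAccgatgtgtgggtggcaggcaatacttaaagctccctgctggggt
Irf9: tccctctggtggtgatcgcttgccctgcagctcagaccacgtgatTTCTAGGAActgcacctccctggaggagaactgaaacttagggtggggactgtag
Irf1: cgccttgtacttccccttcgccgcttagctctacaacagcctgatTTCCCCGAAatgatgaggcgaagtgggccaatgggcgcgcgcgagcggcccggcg

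The match of Irf7 lies on the strand opposite to the gene and spans positions -69 to -60 from the start. That of Ifih1 spans -59 to -50, that of Irf9 -99 to -91 and that of Irf1 -142 to -134. In these genes the same letters stood beside differences of unlike size. Irf9 and Irf1 both hold the gamma-activated letters, with differences of -3.57 and 0.13, and Ifih1 and Irf7 both hold the response element letters, with -2.05 and -0.65. No match in the windows of Irf3, Stat2 and Tlr3 says only that these letters are absent there. Near matches with another spacing were not searched in any window, and Rigi and Dhx58 had no window. A relation of promoter letters to the differences was not tested.

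**Figure D3:**
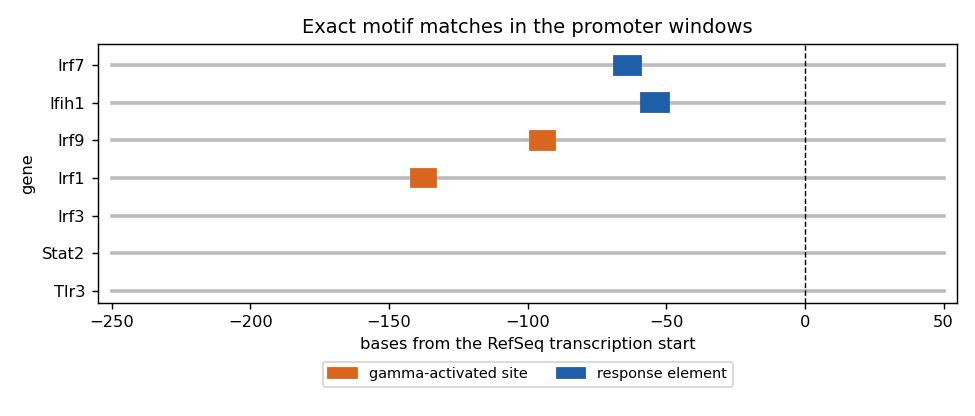
Positions of exact matches to the response element core (blue) and the gamma-activated site (orange) in the RefSeq promoter windows of 7 members, in bases from the transcription start (x axis). Irf7 and Ifih1 hold the first, Irf9 and Irf1 the second, and Irf3, Stat2 and Tlr3 neither.

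The other genes of the pathway were taken from 8 lists, 129 genes in all, with the probe set of the highest mean standing for a gene. Of these, 40 were called lower and 4 higher, and the median difference was -0.28. Over all 14217 genes, 5.44% were called lower and 5.45% higher, with a median of 0.03. The calls were unevenly spread between the lists. The genes downstream of the complex held 25 of the 40 lower calls, and the adaptors and kinases of RNA sensing held 2.

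**Figure D4:**
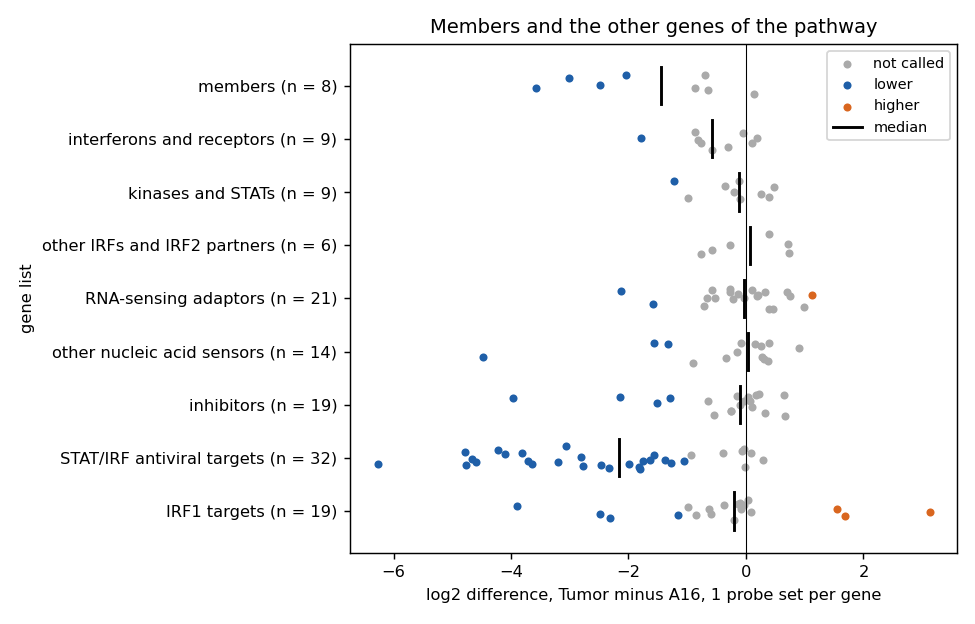
Log2 difference of Tumor minus A16 (x axis) for 1 probe set per gene of the members and of 8 pathway lists, coloured by call, with the median of each list as a black bar. The medians were -1.45 for the members, -2.16 for the antiviral targets and between -0.57 and 0.06 for the 7 other lists.

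Of the interferons and their receptors, 1 of 9 measured genes was called lower and 0 higher. The interferon genes on the array, Ifnb1, Ifng and Ifnk, differed by -0.05, 0.18 and 0.10 and were not called. Their means were 4.66, 4.24 and 4.41 in A16 and 4.61, 4.42 and 4.51 in Tumor. All 3 Tumor means were below the 30th percentile of all probe sets in that group, so a change could be missed. The other listed interferons, of the alpha, epsilon and lambda types, have no probe set of their own. Ifnar1, a chain of the type I receptor, was lower by 3.46-fold (-1.79 ± 0.15, adjusted p = 0.000331), and its 6 probe sets were not alike. Of them, 1375696_at, 1379298_at, 1395364_at and 1398523_a_at were called lower, whereas 1391677_at and 1398055_at were at 0.42 and 0.24. Ifnar2, the other chain, was at -0.57 ± 0.12 (adjusted p = 0.0127) by the probe set with the highest mean and was called lower, at -1.42 ± 0.17, by its other probe set.

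Of the receptor kinases and STAT proteins, 1 of 9 measured genes was called lower and 0 higher. The kinases of the type I receptor were not called, with Jak1 at 0.25 ± 0.11 and Tyk2 at 0.47 ± 0.12 (adjusted p = 0.143 and 0.0225). The other probe set of Jak1 was at -0.40 and was not called. The gene called was Stat6, which serves interleukin signalling, at -1.23 ± 0.30 (adjusted p = 0.0215). Its call was lost without A16 replicate 2, at -0.78, without Tumor replicate 1, at -1.02, and when 32 was added to the intensity before log2, at -1.11. The list of other interferon regulatory factors held Irf2, Irf5 and Irf8 and 3 proteins named for binding Irf2, and 0 of the 6 were called in either direction by limma. By the unadjusted p, 5 of the 6 were below 0.05. Irf2, Irf5 and Irf8 were at 0.72 ± 0.17, -0.27 ± 0.15 and -0.77 ± 0.11.

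The steps between the sensors and Irf3 were called less often than the sensors. Mavs, the mitochondrial adaptor of the helicases, was at -0.28 ± 0.15, and Ticam1, the adaptor of Tlr3, at 0.10 ± 0.11 by RMA and -0.04 by PLIER. Myd88, the adaptor of most other Toll-like receptors, was at 0.40 ± 0.16. None of these was called by any probe set, and the other probe sets of Mavs and Ticam1 were at -0.31 and -0.38. Tbk1 was higher by 0.75 ± 0.11 (adjusted p = 0.00317), short of 2-fold, and Ikbke has no probe set of its own. Of the 21 measured genes of this list, 2 were called lower, namely Trim25, the ubiquitin ligase of Rigi (-2.13 ± 0.16, adjusted p = 0.000215), and Tbkbp1, a binding partner of Tbk1 (-1.59 ± 0.20, adjusted p = 0.00156), whose Tumor mean was also below the 30th percentile. The only gene of the list called higher was Ripk1, a kinase of death receptor signalling (1.12 ± 0.11, adjusted p = 0.000711). Its other probe set was at 0.13 and the other probe set of Tbkbp1 at 0.03, neither of them called. By limma's unadjusted p, 14 of the 21 genes were below 0.05, in both directions, beside 6229 of all 14217 genes.

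Among 14 measured genes of DNA sensing and the other nucleic acid sensors, 3 were called lower and 0 higher. They were Oas1a, which makes the messenger that activates RNase L (-4.47 ± 0.13, adjusted p = 1.38e-05), Eif2ak2, the kinase PKR (-1.56 ± 0.13, adjusted p = 0.000323), and Adar, which edits double-stranded RNA (-1.32 ± 0.14, adjusted p = 0.000939). These 3 genes are also known as interferon-induced. By its other probe sets Adar was at -3.18 and -1.90, both called lower. Sting1, the adaptor of DNA sensing, was higher by 0.91 ± 0.12 (adjusted p = 0.00223), short of 2-fold. Without A16 replicate 1, and with the same assumption for the lone A16 sample, it was at 1.02 and was called. Cgas has no probe set of its own in the annotation.

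Of 19 measured inhibitors, 4 were called lower and 0 higher. Isg15, a ubiquitin-like protein induced by interferon, fell by 3.96 on the log2 scale (SE 0.12, adjusted p = 1.25e-05). Usp18, which removes it and blocks the receptor, fell by 2.14 (SE 0.11, adjusted p = 6.2e-05). Pias4, a ligase that restrains STAT proteins, was at -1.51 ± 0.24, and Tnfaip3, an inhibitor of NF-kB, at -1.30 ± 0.15. Socs1, the inhibitor of the receptor kinases, was at -0.03 ± 0.13 and was not called. The other probe sets of Socs1 and Pias4 were at -0.60 and -0.79 and were not called.

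Of the antiviral genes induced by STAT and IRF factors, 25 of 32 were called lower and 0 higher. Rsad2, which encodes viperin, fell by 6.27 on the log2 scale (SE 0.15, adjusted p = 7.59e-06), a 77-fold lower level. Its Tumor mean of 5.25, that of Ifit3 and those of 5 other genes among the 25 were below the 30th percentile of all probe sets in Tumor, where a fold is understated. Rtp4 was at -4.79 ± 0.11, Mx2, an antiviral GTPase, at -4.76 ± 0.11 and Ifit3, of the IFIT family of antiviral proteins, at -4.66 ± 0.13. The other probe set of Mx2 was at -0.06 and was not called, with means of 4.65 in A16 and 4.59 in Tumor. The list's lower median of -2.16 stands beside -1.45 for the 8 measured members.

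Genes induced through Irf1, which itself was not called, went in both directions. Of 19 measured, 4 were called lower and 3 higher. Gbp2 and Gbp4, guanylate-binding proteins, were at -3.90 ± 0.22 and -2.49 ± 0.14, and Psmb10, a subunit of the immunoproteasome, at -2.31 ± 0.13. The other subunits differed, with Psmb8 called higher at 1.68 ± 0.13 and Psmb9 at -0.85 ± 0.17 and not called. Casp1, the protease of the inflammasome, rose by 3.13 ± 0.11 (adjusted p = 1.9e-05).

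Nearest to Irf9 1383448_at over the 6 arrays, by root mean square distance of log2 values centred on their mean, were Nid1 (0.109), Krt7 (0.126), Lox (0.140), Cxcl11 (0.144) and Nap1l3 (0.144). Of these, only Cxcl11 is in the antiviral list. Their differences were between -3.81 and -3.29, and the 6 points come from 2 groups of 3 arrays.

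Markers of other cells that an explant could hold were read beside these results. The probe sets are of the rat, and how well they read transcripts of the mouse host was not tested. A marker that was not called therefore gives no measure of host cells. Of 16 macrophage and myeloid markers, 2 were called higher in Tumor, Csf1r at 3.14 ± 0.14 and Cd68 at 1.07 ± 0.12, and 0 lower. With 32 added before log2, Cd68 was at 0.80 and no longer called. Ptprc, Adgre1 and Tyrobp were at -0.07, 0.14 and 0.24, with Tumor means below the 30th percentile of that group. On 7 of the 16 markers each Tumor array lay above each A16 array, and on 4 each lay below. Over all probe sets, 25.0% lay below, and the share above was not counted. The mean log2 value of the list was 5.73 to 5.86 on the A16 arrays and 6.08 to 6.13 on the Tumor arrays. Of 10 lymphocyte markers, 0 were called by limma, and 0 had an unadjusted p below 0.05. Flt1 was the 1 of 9 endothelial and Krt8 the 1 of 10 epithelial markers called higher, and the other 2 probe sets of Flt1 were at -0.05 and 0.20. By PLIER, 2 endothelial and 2 epithelial markers were called higher and 1 endothelial marker lower. The part of other cells, of serum, of labelling and of RNA quality in the lower levels of the sensors and of Irf9 was not tested.

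The differences of the members were then recomputed with 14 other settings of the limma fit. For Irf9 1383448_at they lay between -3.74 and -3.25, for Irf9 1374627_at between -3.12 and -2.47, for Rigi between -3.34 and -2.69 and for Ifih1 between -2.76 and -1.45. All stayed called in these 14 fits, but by the plain test after adjustment, given above, none was. The differences of Irf3 lay between -0.98 and -0.60 and those of Irf7 between -0.71 and -0.51, none of which was called.

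**Figure D5:**
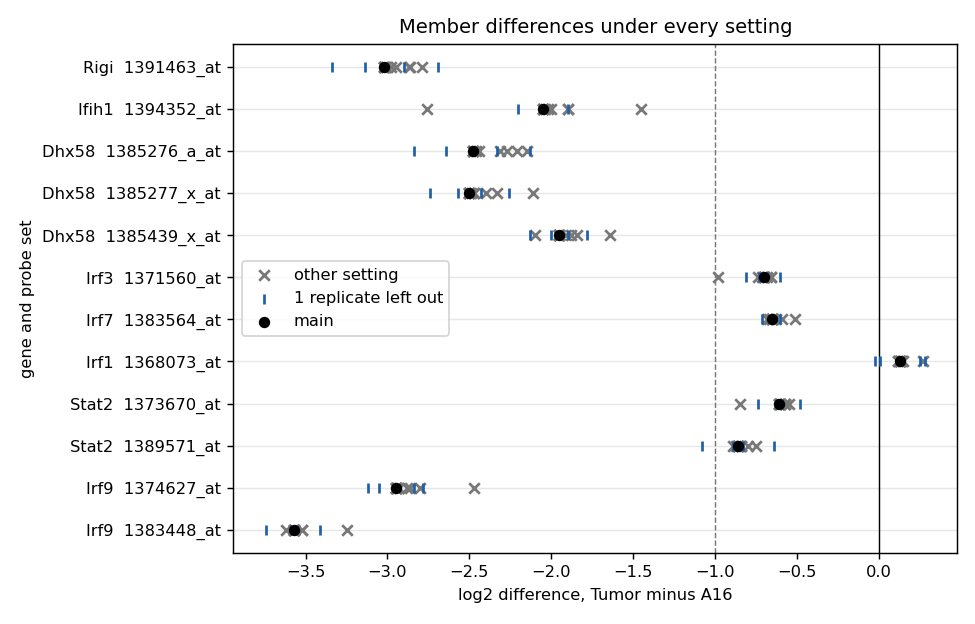
Log2 difference of Tumor minus A16 (x axis) for each member probe set as reported (black, labelled main), with 1 replicate left out (blue bars) and under the other settings (grey crosses), with a dashed line at a 2-fold lower level. Every value of Irf9, Rigi, Dhx58 and Ifih1 lies beyond the line, Irf1 spans 0, from -0.02 to 0.28, and 1 value of Stat2 1389571_at passes the line, at -1.08.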

How the data were processed

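Biotin-labelled cRNA of each culture was read on Affymetrix rat expression arrays. The 12 records are 6 arrays, each summarised by the authors in 2 ways, as RMA and as PLIER (no version is given in the sources used here). As deposited, the values are intensity before any log, and their log2 was used. Array controls (57 of 31099 probe sets) were left out. The labels call replicates biological without stating separate cultures or animals, so the p-values reflect no more than how these samples scatter, which may be technical, and the number of arrays limits the precision. Technical replicate 2 carries no biological number and was averaged with replicate 1.

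Groups were compared by two-sided moderated tests of limma 3.58.1 (lmFit, then eBayes; R 4.3.3) with Benjamini-Hochberg adjustment over 31042 probe sets, after the code was tested on simulated data. Gene names come from the platform annotation, updated through RefSeq. Promoter windows were read with Python 3.11.15. Beside the members, a gene was named if it belonged to a fixed core of the pathway or was among the 4 largest called differences of its list, and Ifnb1, Ifng, Ifnk, Irf2, Irf5, Irf8, Psmb8, Psmb9 and the markers named were chosen after their values were seen. The members and lists were chosen with earlier results of these data known.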

Additional observations from a re-analysis of the deposited data

How the results depend on the processing

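With 2 replicates per group, a single array weighs heavily, and fold changes near the floor of the array are understated. Of the 12 member probe sets, 7 were called lower under PLIER, under each treatment of technical replicate 2, under the filter, normalisation, offset and variance alternatives and by the plain test of the study's legend without adjustment; leaving out 1 replicate, with the lone sample assumed to vary like the other group, gave 7 to 8. With any fold, or with a fold of at least 1.5, 11 were called lower. After Benjamini-Hochberg adjustment the plain test called 0 of the 12. Over all probe sets, the calls lower and higher were 4832 and 5047 with any fold, 3776 and 3609 with at least 1.5-fold, and 8 and 4 by the adjusted plain test; leaving out 1 replicate gave 1684 to 2502 lower and 1651 to 1830 higher.

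Same-numbered replicates shared only a number: the deviations of replicate 1 correlated at 0.121 between the groups over probe sets. With the replicate number as a block, 7 members were called lower and 0 higher, with 2035 and 1715 over all probe sets.

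Stat2 1389571_at ranged from -1.08 to -0.64 and Irf1 from -0.02 to 0.28 with 1 replicate left out, and -0.02 was the value without A16 replicate 1. Socs1 ranged from -0.15 to 0.10 with 1 replicate left out and turned to 0.04 without technical replicate 2, 0.10 without A16 replicate 1 and 0.04 without Tumor replicate 2, and Ticam1 to -0.04 by PLIER. Counting a gene by any of its probe sets gave 46 genes lower and 7 higher over the 8 lists, beside 1422 and 955 of all 14217 genes. Those lower were 3 receptors, 2 kinases or STAT proteins, 4 nucleic acid sensors, 5 inhibitors and 1 gene of the other regulatory factors (Irf2bpl, an Irf2-binding protein), with the other lists as before. Newly higher were 1 gene of that list (Irf2bp2, likewise), 1 inhibitor and 1 sensor, Dhx36, which also has 2 probe sets called lower. PLIER gave 2 receptors, 2 kinases or STAT proteins and 5 Irf1-induced genes lower, and 2 RNA-sensing adaptors and 1 inhibitor higher, beside 950 lower and 1023 higher of all genes. The longer response element, with CT after its second GAAA, was in 0 of the 7 member windows. The cause of these changes was not tested.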
